A study of Homo sapiens with 12 samples.

Results

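Autophagy and mitophagy clear organelles from maturing red cells. The 10 genes described here, ULK1, ATG9A, ATG9B, WIPI1, MAP1LC3B, GABARAPL1, GABARAPL2, SQSTM1, BNIP3 and BNIP3L, were chosen by name for this role, with earlier results of these data in view. All 10 were found by symbol among the 27348 genes of the deposited expression table. K562 is a human chronic myeloid leukemia cell line with erythroid potential. Its cells were infected with the lentiviral vector PLKO.1 carrying an shRNA against the long isoform of PHF19 (sh#1 or sh#2), or with the empty vector (shCT), and were selected with puromycin. RNA-seq was done in 6 libraries, 2 for each of sh#1, sh#2 and shCT, and ChIP-seq in 6 libraries with 1 for each condition. The labels give no time point, and shCT carries no hairpin, so a control for shRNA expression itself is not among the groups. For the ChIP-seq, 3 peak lists were analysed: MTF2 in sh#2 cells, MTF2 in shCT cells and PHF19 in shCT cells.

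In autophagy, the kinase ULK1 starts the formation of a double membrane, and the lipid scramblases ATG9A and ATG9B sit in the vesicles that seed it. WIPI1 binds the phosphoinositide made at that site. MAP1LC3B, GABARAPL1 and GABARAPL2 belong to the ubiquitin-like family that is attached to the growing membrane and recruits cargo. SQSTM1 brings ubiquitinated cargo to these proteins, while BNIP3 and BNIP3L are receptors in the outer mitochondrial membrane. BNIP3L is required for the removal of mitochondria from reticulocytes, as known from mice. PHF19 and MTF2 are related accessory proteins of Polycomb repressive complex 2 (PRC2), which methylates histone H3 at lysine 27 and acts mostly at CpG-rich promoters.

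The promoter sequences show where these genes differ most in base composition. The 250 bases upstream of the most 5′ transcription start site (TSS) are given for BNIP3, whose promoter held the closest peak, and for the paralogs ATG9B and ATG9A, which had the lowest and a high CpG content. They were read from GRCh37, on the minus strand for all 3 genes, from chr10:133795472-133795721 for BNIP3, chr7:150721587-150721836 for ATG9B and chr2:220094440-220094689 for ATG9A. Capitals mark CpG dinucleotides.
BNIP3: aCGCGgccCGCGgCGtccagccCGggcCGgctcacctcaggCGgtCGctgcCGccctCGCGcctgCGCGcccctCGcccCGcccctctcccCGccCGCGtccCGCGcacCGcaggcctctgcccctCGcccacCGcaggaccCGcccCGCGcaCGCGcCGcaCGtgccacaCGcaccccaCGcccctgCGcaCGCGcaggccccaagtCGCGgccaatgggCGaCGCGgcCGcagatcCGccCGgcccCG
ATG9B: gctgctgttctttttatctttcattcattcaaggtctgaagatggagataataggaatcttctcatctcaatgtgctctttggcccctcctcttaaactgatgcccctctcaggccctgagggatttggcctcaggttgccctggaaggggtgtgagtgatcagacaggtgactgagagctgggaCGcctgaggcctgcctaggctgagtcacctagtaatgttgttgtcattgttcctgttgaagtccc
ATG9A: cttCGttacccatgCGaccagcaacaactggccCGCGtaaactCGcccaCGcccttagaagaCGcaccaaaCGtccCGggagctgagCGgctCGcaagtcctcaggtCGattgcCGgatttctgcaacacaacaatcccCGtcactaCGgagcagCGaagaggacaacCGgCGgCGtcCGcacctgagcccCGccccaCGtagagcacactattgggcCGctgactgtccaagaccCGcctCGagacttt
The BNIP3 stretch holds 45 CpG dinucleotides and is 82.8% G or C. The ATG9B stretch holds 1 CpG and is 50% G or C, and the ATG9A stretch holds 25 CpG and is 61.6% G or C. Of the 250 bases at BNIP3, 222 lie under an MTF2 peak of sh#2 cells, whereas no base of the other 2 stretches lies under a peak of that list.

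CpG content was then compared with all promoters, over the window from 250 bp before to 50 bp after the TSS of the canonical transcript. The observed/expected CpG ratio, which sets the number of CpG dinucleotides against that expected from the C and G content, was above the median of 0.714 over 23359 promoters in 9 of the 10 genes. The interquartile range of all promoters ran from 0.296 to 0.897. BNIP3 had the highest ratio of the 10 genes, 1.068, at percentile 95 of all promoters. SQSTM1 had 0.993, MAP1LC3B 0.979, ATG9A 0.975 and GABARAPL2 0.974. GABARAPL1 had 0.901, BNIP3L 0.862, ULK1 0.839 and WIPI1 0.823. ATG9B stood apart with 0.054, at percentile 3.27. The 2 ATG9 paralogs thus lay far apart in this range.

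**Figure D1:**
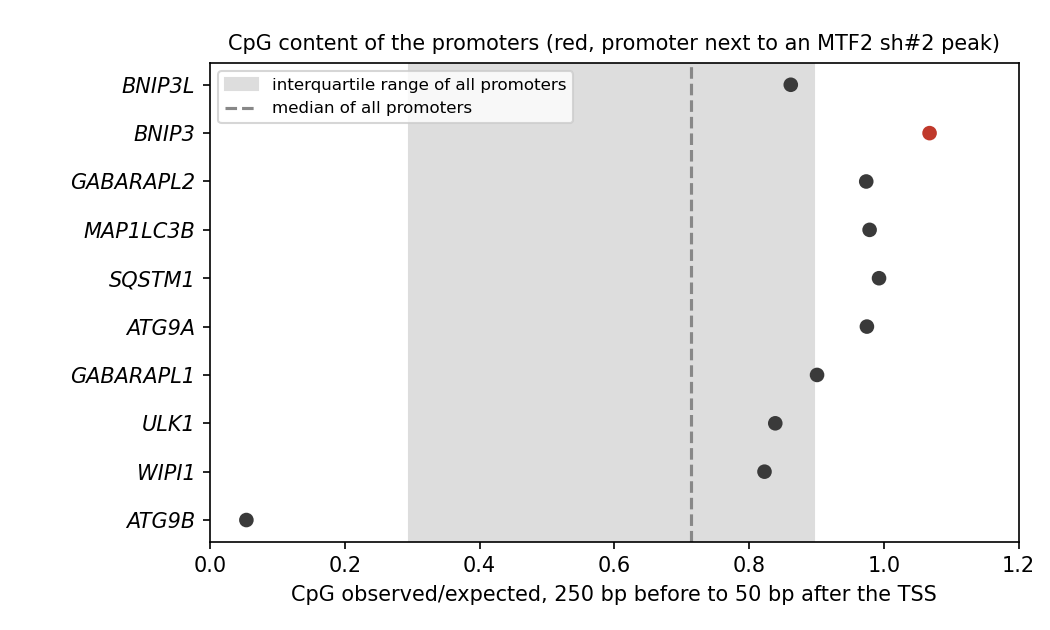
CpG observed/expected ratio of the 10 promoters (x axis, no unit), with the interquartile range of all 23359 promoters in gray and their median, 0.714, as a dashed line. ATG9B lies at 0.054, while the other 9 genes lie between 0.823 and 1.068, with BNIP3 (red) highest.

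Short motifs were searched on both strands of the same windows. The letters ACGTG, the core bound by hypoxia-inducible factors, were present in ATG9A, GABARAPL2, BNIP3 and BNIP3L, that is in 4 of 10 genes, and in 22.65% of all promoters. CACGTG, an E-box bound by TFEB and MYC that contains ACGTG, was present in BNIP3 and BNIP3L, and in 8.17% of all promoters. In the BNIP3 stretch printed above, CACGTG starts at position 161 counted from its 5′ end. AGATAA, a form of the GATA motif, was found in the ATG9B promoter alone among the 10 genes, with 2 matches, and in 8.37% of all promoters. Those matches start at positions 14 and 46 of the printed ATG9B stretch, the first on the opposite strand. These matches describe letters only.

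The expression table was used for the level of each gene, as the authors' mean normalized count over all 6 RNA libraries. That mean pools the shRNA and shCT cells, so it gives no comparison between them, and the spread between libraries is not known. In such bulk samples, fewer cells expressing a gene and less RNA per cell cannot be told apart. The table placed these genes in cells of erythroid character: 12 erythroid markers had means between 4463 (KLF1) and 171752 (HBG2). Of the markers of T and B cells, MS4A1 was at 0 and the other 4 lay between 2.03 (PAX5) and 962 (CD3D). Monocyte markers lay between 2.04 (CD14) and 2331 (LYZ). Of the epithelial and liver markers, ALB was at 6.72 and KRT19 at 3229, so markers of other tissues were not all low.

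Per kb of exon, the 2 mitophagy receptors were the highest of the 10 genes. BNIP3L had a mean normalized count of 8220, or 1981 per kb, at percentile 96.5 of the 19538 placed genes with a mean above 0. BNIP3 had a mean of 5757, or 1421 per kb, at percentile 94.8. SQSTM1, the cargo receptor, had a mean of 5183, or 688 per kb, at percentile 88.6. In the ubiquitin-like family, GABARAPL2 had a mean of 3222 and 1070 per kb, MAP1LC3B a mean of 3604 and 715 per kb, and GABARAPL1 a mean of 1063 and 262 per kb. GABARAPL1 was thus the lowest of these 3 genes on the scale per kb.

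The genes that act at the start of autophagy were lower on the scale per kb, apart from ATG9A. ATG9A had a mean of 2098, or 444 per kb, at percentile 82.6. Its paralog ATG9B had a mean of 190 and 29.6 per kb, at percentile 45.7, and was the only one of the 10 genes below the median of 48.8 per kb over genes with a mean above 0. ULK1 had a mean of 1025 and 135 per kb, and WIPI1 a mean of 448 and 132 per kb. Set against genes with a mean of at least 10 instead, ATG9B lay at percentile 24.9, and WIPI1 (47.7) and ULK1 (48.1) also fell below the median. The order per kb was therefore BNIP3L, BNIP3, GABARAPL2, MAP1LC3B, SQSTM1, ATG9A, GABARAPL1, ULK1, WIPI1 and ATG9B. As no value per library was used, it cannot be said which neighbors in this order differ beyond their spread. The median mean was 2660 for the 10 genes, and 8 of the 10 had a mean of at least 1000. Over all 24391 placed genes the median was 32.7, but 10372 of these had a mean below 10, those at 0 included. For 51 other autophagy genes, described below, the median was 1158, and 32 had a mean of at least 1000.

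**Figure D2:**
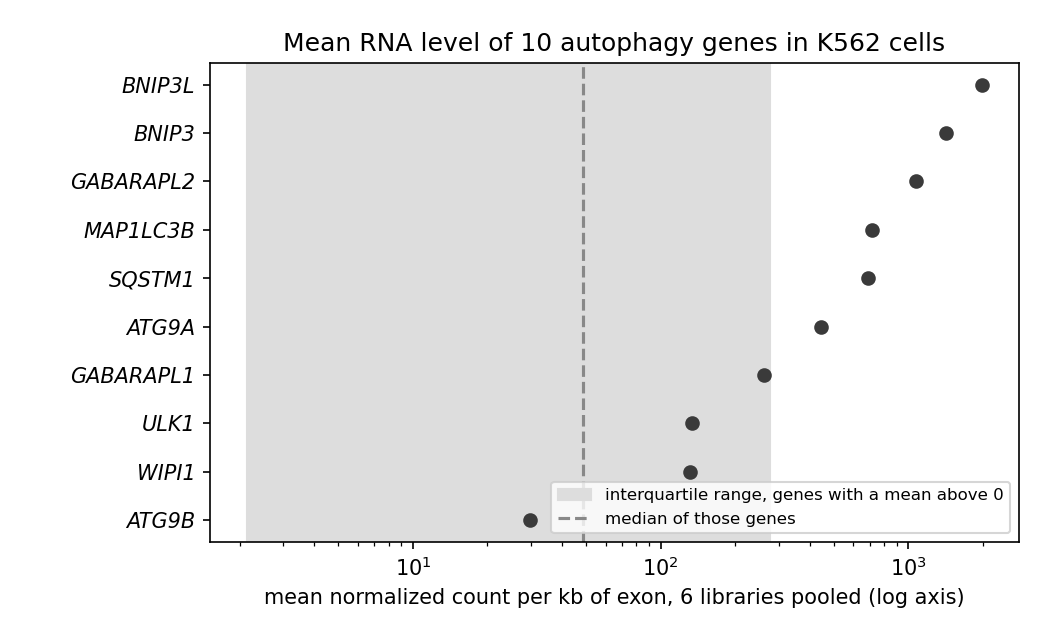
Mean normalized count per kb of exon for each gene (x axis, log scale), 1 point for a gene, pooled over 6 RNA libraries, so that no error can be drawn. Gray marks the interquartile range and the dashed line the median (48.8 per kb) of the 19538 genes with a mean above 0. ATG9B, at 29.6 per kb, is the only gene left of that median, while ULK1 and WIPI1 also lie below the median of genes with a mean of at least 10.

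Some of these levels may include reads of other genes, since the use of strand in the counting is not given in the sources used here. WIPI1 shares 829 bp, or 24.4% of its exon bases, with ARSG on the opposite strand, which had a mean of 98.8. SQSTM1 shares 1582 bp (21.0%) with MRNIP, with a mean of 187, and 105 bp with MGAT4B. ATG9B shares 786 bp (12.3%) with NOS3, whose mean of 588 was above the 190 of ATG9B itself. BNIP3L shares 330 bp with PNMA2 and MAP1LC3B shares 60 bp with FBXO31. Related copies elsewhere, MAP1LC3B2 with a mean of 425 and GABARAPL3 with 28.7, could also exchange reads with MAP1LC3B and GABARAPL1. ULK1, ATG9A, GABARAPL1, GABARAPL2 and BNIP3 shared no exon bases with another gene of the expression table. Only the copies named here were considered, so read exchange of the other genes with copies elsewhere was not examined.

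To ask whether these genes were occupied by PHF19, or by MTF2 with and without PHF19 depletion, a gene was given a peak when at least 1 bp of the peak fell between 2.5 kb upstream of its TSS and its transcript end. Most of the 10 genes had no peak, as was true of most placed genes. BNIP3 and BNIP3L had an MTF2 peak in sh#2 cells, 2 of 10 genes, beside 17.9% of all 24391 placed genes. BNIP3L alone had an MTF2 peak in shCT cells, 1 of 10, beside 13.4% of all genes. None of the 10 had a PHF19 peak in shCT cells, beside 10.1% of all genes. BNIP3 was the only gene of the 10 with an MTF2 peak in sh#2 and none in shCT, a pattern found in 5.43% of all genes. These shares are near those of all genes, so against that background they are no result about the 10 genes. BNIP3 and BNIP3L both have a mean of at least 1000. In that class MTF2 peaks were rarer, at 4.04% of genes in sh#2 cells and 2.92% in shCT cells. Whether the 10 genes differ from genes of like level was not tested. With 1 library for each condition, no test between conditions was possible.

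The lists themselves differ in size. MTF2 in sh#2 cells had 18287 peaks over 63.2 Mb with a median width of 2598 bp, against 12502 peaks over 29.0 Mb with a median width of 1780 bp in shCT cells. PHF19 in shCT cells had 5621 peaks over 11.5 Mb. The paper reported fewer PHF19 peaks and target genes, after a minimum number of tags that could not be applied here. The lists hold a score for each peak, of at least 50 in all 3 lists, with no tag counts, depth or spike-in scaling. The PHF19 depletion and a difference in library depth or in peak calling therefore cannot be told apart for a peak present in only 1 MTF2 list. The header of the sh#2 list names its hairpin sh4, while its label says sh2. The header of the PHF19 list names sh4 beside shCT chromatin, so which control sample was used there is not settled.

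At BNIP3 (ENSG00000176171, chr10:133781188-133795471, minus strand), the MTF2 peak of sh#2 cells covered chr10:133795500-133796556, a width of 1057 bp. Its near edge lay 29 bp upstream of the TSS, over the CpG-rich stretch printed above. Its score of 56.5 ranked 16563 of 18287 peaks in that list, or 90.6% of the way down the list, close to its lower score limit of 50. Neither the MTF2 list of shCT cells nor the PHF19 list had a peak within 2.5 kb of that TSS.

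Farther upstream, BNIP3 lay next to a cluster of peaks. Within 100 kb of its TSS there were 11 MTF2 peaks in sh#2 cells and 7 in shCT cells, and 1 PHF19 peak. As many MTF2 peaks were found around 5.33% of all genes in sh#2 cells and around 6.88% in shCT cells. All of these except the promoter peak lay between 41.0 and 85.8 kb upstream. Of the distal peaks, 5 of 10 in sh#2 cells and 4 of 7 in shCT cells overlapped JAKMIP3, a neighboring gene. The strongest distal peak of sh#2 cells had a score of 390 and ran from 79.5 to 85.8 kb upstream. Within it, shCT cells had a peak with a score of 110, at 82.8 to 84.3 kb upstream. The highest distal score in shCT cells was 121, at 43.6 to 44.9 kb upstream. There, sh#2 cells had a peak with a score of 335, at 42.6 to 44.9 kb upstream. Scores of the 2 lists are not on a shared scale. The PHF19 peak, 41.1 kb upstream, lay where both MTF2 lists had a peak.

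**Figure D3:**
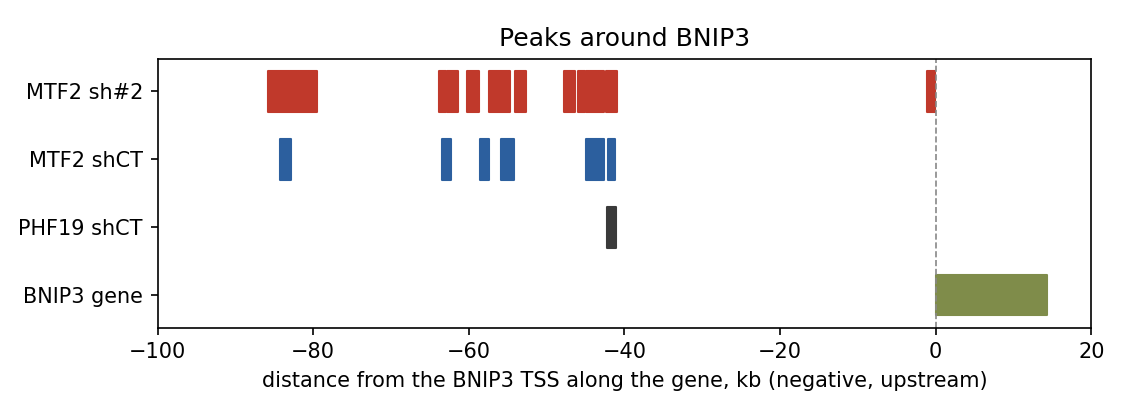
Peaks around BNIP3 by distance from its TSS (x axis, kb, negative values upstream), with MTF2 in sh#2 cells, MTF2 in shCT cells and PHF19 in shCT cells from top to bottom, and the gene in green. A peak lies next to the TSS in MTF2 sh#2 only, and every other peak lies 41.0 to 85.8 kb upstream.

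At BNIP3L (ENSG00000104765, chr8:26240570-26363152, plus strand), the peaks were remote from the promoter. The MTF2 peak of sh#2 cells was 1599 bp wide with a score of 77.8, ranked 12539 of 18287, and began 78.4 kb downstream of the TSS. The MTF2 peak of shCT cells was 1098 bp wide with a score of 60.5, ranked 9725 of 12502, and began 105 kb downstream. The 2 peaks were at different positions and did not overlap. Both lay beyond the end of the canonical transcript, by 48306 bp for sh#2 and by 74528 bp for shCT. They were counted because the annotated gene extends past that end when all its transcripts are used. With the canonical transcript alone, BNIP3L had no peak. At promoters, taken as 2.5 kb either side of a TSS, BNIP3 in MTF2 sh#2 was the only one of the 10 genes with a peak.

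The remaining 8 genes had no peak in any list, as did 78.4% of all placed genes. For ATG9A, the nearest MTF2 peak was 24.0 kb from the TSS in sh#2 cells, at TUBA4A and TUBA4B, and 71.3 kb away in shCT cells, at PTPRN. For GABARAPL2, it was 33.2 kb away in sh#2 cells, at CHST5, and 70.3 kb away in shCT cells, at CHST6. For ATG9B, the nearest MTF2 peak of sh#2 cells was 40.0 kb away and the nearest PHF19 peak of shCT cells 41.8 kb away, both at KCNH2, a potassium channel gene, while the nearest MTF2 peak of shCT cells was 123 kb away. KCNH2 therefore had a PHF19 peak in shCT cells and an MTF2 peak in sh#2 cells at the same place. It was singled out after its values were seen.

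WIPI1 had MTF2 peaks of both conditions within ARSG, 75.5 kb from its most 5′ TSS in sh#2 cells and 75.4 kb in shCT cells. From the nearest of all annotated WIPI1 TSSs, these distances were 45113 bp in sh#2 cells and 45092 bp in shCT cells. ULK1 had its nearest MTF2 peak at 63.5 kb in sh#2 cells, at MMP17, and at 194 kb in shCT cells. The 3 lists had their nearest peaks of MAP1LC3B within a narrow range, at 121 kb for MTF2 sh#2, 123 kb for MTF2 shCT and 115 kb for PHF19. SQSTM1 was 162 kb from an MTF2 peak in sh#2 cells, 279 kb in shCT cells and 263 kb from a PHF19 peak. GABARAPL1 was the most remote, with 1083 kb for MTF2 sh#2, 1607 kb for MTF2 shCT and 3554 kb for PHF19.

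Over the 10 genes, the median distance to the nearest MTF2 peak was 69.5 kb in sh#2 cells and 114 kb in shCT cells. Over 24281 genes these medians were 114 kb in sh#2 cells and 162 kb in shCT cells. For PHF19 the median was 279 kb for the 10 genes, against 225 kb for all genes. No peak lay within 100 kb of 3 of the 10 genes for MTF2 sh#2, 6 for MTF2 shCT and 8 for PHF19, beside 53.1%, 61.0% and 67.1% of all genes for the same lists. The MTF2 sh#2 list also holds more peaks than the MTF2 shCT list, and the part of this in the distances was not tested.

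**Figure D4:**
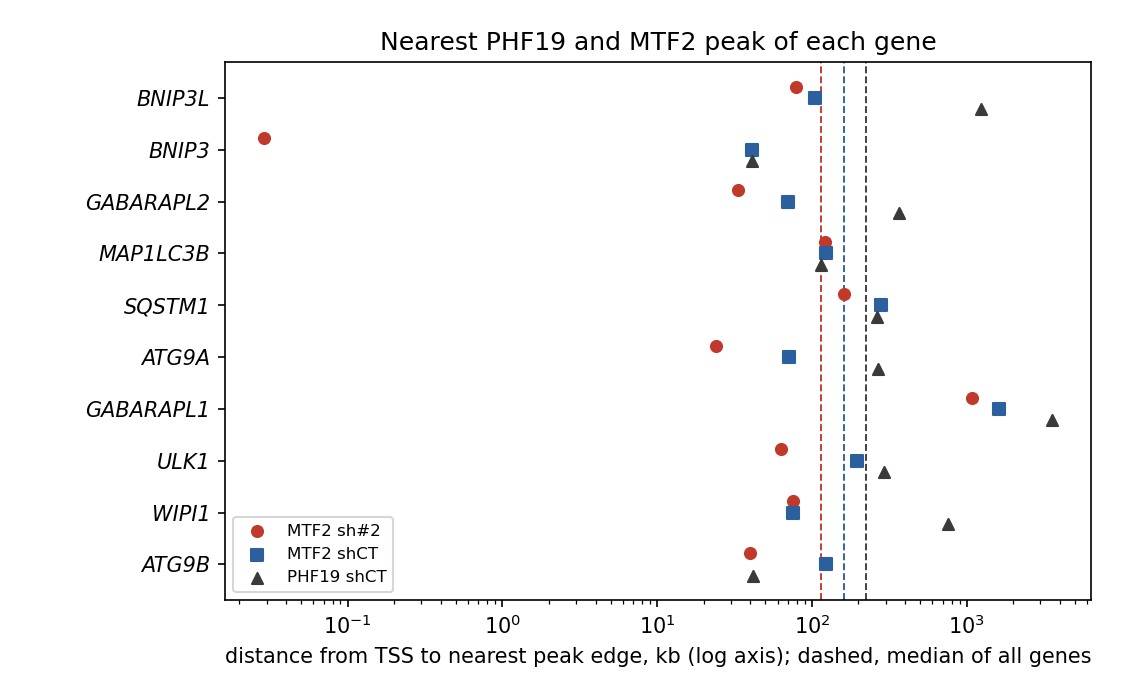
Distance from the TSS to the nearest peak edge for each gene (x axis, kb, log scale) in MTF2 sh#2 (circles), MTF2 shCT (squares) and PHF19 shCT (triangles), with the median of all genes as a dashed line for each list. BNIP3 has the only point below 1 kb, at 0.03 kb in MTF2 sh#2, and GABARAPL1 has the most remote point in each list.

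MTF2 peaks were less frequent at highly expressed genes, the class to which most of the 10 genes belong. Of the 6257 genes with a mean of at least 1000, 4.04% had an MTF2 peak in sh#2 cells (exact 95% interval, 3.57 to 4.56%) and 2.92% in shCT cells (2.52 to 3.37%). PHF19 peaks were at 7.16% of them (6.53 to 7.83%). Among genes with a mean between 0 and 10, the shares were 32.0% for MTF2 sh#2, 24.7% for MTF2 shCT and 14.4% for PHF19. Among the 4853 genes at a mean of 0, they were 19.2% for MTF2 sh#2, 13.4% for MTF2 shCT and 5.38% for PHF19, so PHF19 peaks were less frequent there than at genes with a mean of at least 1000. These intervals cover counting error over genes, which are not independent, and leave out differences between libraries. Within the genes with a mean of at least 1000 and a CpG ratio above the median, a promoter peak was present at 3.09% of 5153 genes for MTF2 sh#2, 2.10% for MTF2 shCT and 6.02% for PHF19. Among the 10 genes, 8 belong to that class, BNIP3 included. ATG9B has a mean of 100 to 1000 and a low CpG ratio, a class in which 6.58% of 1323 genes had a promoter peak for MTF2 sh#2.

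**Figure D5:**
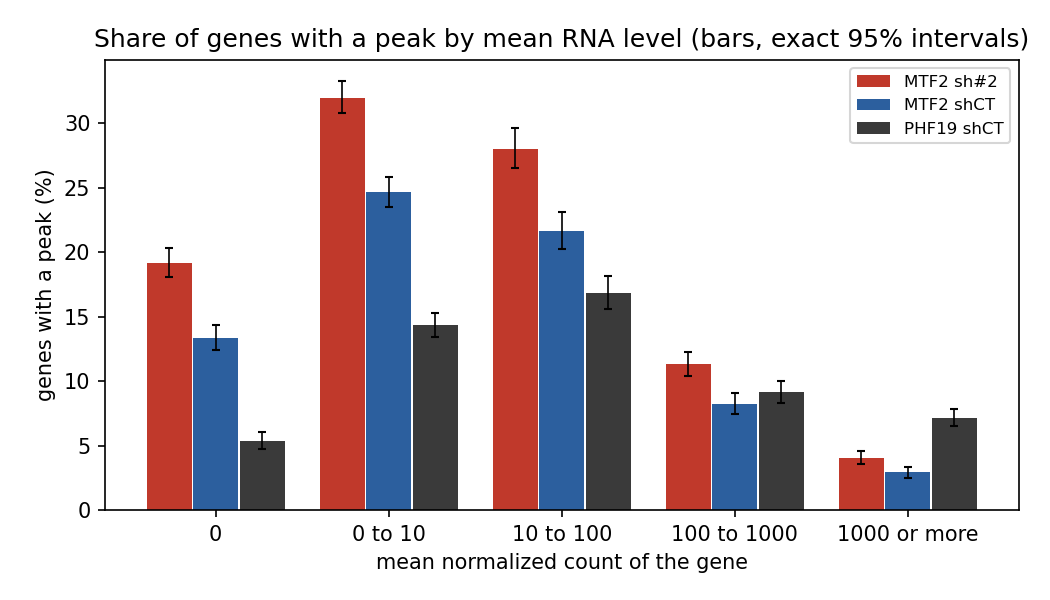
Share of genes with a peak (y axis, percent) by mean normalized count (x axis), for MTF2 sh#2, MTF2 shCT and PHF19 shCT from left to right in each class, with exact 95% intervals. The class of 1000 or more, which holds 8 of the 10 genes, has the lowest MTF2 shares, 4.04% in sh#2 and 2.92% in shCT.

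The rest of the autophagy pathway gave a wider view. Of 51 other autophagy genes, 7 (13.7%) had an MTF2 peak in sh#2 cells, 6 (11.8%) in shCT cells and 5 (9.8%) a PHF19 peak, beside 17.9%, 13.4% and 10.1% of all genes. In 42 of the 51 genes there was none in any list. At the most 5′ TSS, RB1CC1, a scaffold of the ULK complex, had an MTF2 peak over its TSS in both conditions, with 1523 bp in sh#2 cells and 979 bp in shCT cells, and a mean normalized count of 3969. MAP1LC3C, a relative of MAP1LC3B, had MTF2 peaks in both conditions, 655 bp upstream in sh#2 cells and 580 bp upstream in shCT cells, and a mean of only 12.8. ATG12, the ubiquitin-like protein joined to ATG5, had a PHF19 peak 25 bp upstream of its TSS and no MTF2 peak. That PHF19 peak overlapped AP3S1, a neighboring gene, and not ATG12 itself. FOXO3, a transcription factor that controls autophagy genes in erythroid cells of mice, had a PHF19 peak over its TSS and no MTF2 peak. That peak had a score of 50.6, rank 5511 of 5621. Of all 5621 PHF19 peaks in the list used here, 39.05% overlapped no MTF2 peak of either list. The paper's minimum number of tags was not applied, so peaks near the lower score limit, such as that of FOXO3, are included. With that minimum, and by target genes instead of peaks, the paper reported that MTF2 shared most PHF19 targets.

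At ULK2, TECPR1, TFEB and TAX1BP1, the peaks lay downstream of the most 5′ TSS. With all annotated TSSs, ULK2, TECPR1 and TFEB also had an MTF2 peak within 2.5 kb of a TSS in both conditions, and ULK2 a PHF19 peak, so that 5 genes of the wider list had a promoter peak in each MTF2 list and 3 in the PHF19 list. ULK2, the paralog of ULK1, had 4541 bp under MTF2 peaks in sh#2 cells, 2775 bp in shCT cells and 891 bp under a PHF19 peak, with a mean of 15.4. TECPR1, which binds autophagosomes, had 7219 bp in sh#2 cells and 1550 bp in shCT cells. Its strongest sh#2 peak had a score of 419, rank 2191 of 18287. TFEB, a regulator of lysosome and autophagy genes, had 1020 bp in sh#2 cells and 126 bp in shCT cells. Both values count only the part of a peak that lies before the gene's end. The whole peaks overlapped each other, with 3300 bp and a score of 60.6 in sh#2 cells. In shCT cells the peak had 2366 bp and a score of 65.2. At TAX1BP1, a cargo receptor, 6735 bp in sh#2 cells and none in shCT cells lay under MTF2 peaks. A stretch of 894 bp lay under a PHF19 peak of shCT cells. All of these peaks lay beyond the end of the canonical transcript. The MTF2 peak nearest the TAX1BP1 TSS also overlapped JAZF1, a neighboring gene. ULK2, RB1CC1, MAP1LC3C, TECPR1, TFEB and TAX1BP1 thus each had a longer stretch under MTF2 peaks in sh#2 cells than in shCT cells. The covered length of the list as a whole was also larger, and the share of all genes with a longer stretch was not computed. By rank, the strongest peak of RB1CC1 lay 73.1% of the way down the sh#2 list and 45.5% down the shCT list. These values were 89.2% and 55.6% for MAP1LC3C, 85.4% and 70.7% for TFEB, and 29.7% and 29.1% for ULK2. TECPR1 went the other way, with 12.0% and 53.4%.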

How the data were processed

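RNA-seq and ChIP-seq of K562 cells were grouped by their labels. The authors aligned RNA reads to hg19 with TopHat and ran DESeq2 on RefSeq exons. The deposited table holds the mean normalized count and 5 columns of their own comparison. Those columns are the log2 fold change, its standard error, the Wald statistic, the p-value and the adjusted p-value. None of the 5 was used. ChIP reads were mapped by the authors with Bowtie to hg19 and dm3 and peaks were called with MACS. The deposited lists give 1 score for each peak. Versions of these tools were not found in the sources used. The study's minimum number of tags for PHF19 peaks could not be applied. Not analysed here were the IgG library and the PHF19 libraries of both hairpins.

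Genes were placed by GENCODE 44 on GRCh37, the assembly of hg19, 23366 by symbol and 1025 through RefSeq synonyms, and all transcripts were used. Coordinates are 1-based. Distances were taken from the most 5′ TSS. Exon length was the union of GENCODE exons, whereas the authors counted reads over RefSeq exons. Overlaps were computed with pandas 2.3.3, scipy 1.17.1 and numpy 2.4.6 (Python 3.11.15) and checked on simulated data. Figures were drawn with matplotlib 3.10.9. No test was run, as each ChIP condition has 1 library. The genes, motifs and lists were chosen with earlier results of these data known. Every one of the 10 genes was described, and of the wider list each gene with a peak except 1 that is not reported here. Depth per library is unknown, which limits precision. Alternatives were another region, overlap, score limit, transcript set, TSS, level filter and promoter window.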

Additional observations from a re-analysis of the deposited data

How the results depend on the processing

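The number of the 10 genes with a PHF19 peak stayed at 0 under all 6 alternatives. For MTF2 sh#2, the count of 2 became 1 with promoters only, 0 with peaks at or above the median score of their list and 1 with the canonical transcript alone, an alternative chosen after seeing the data. For MTF2 shCT, the count of 1 became 0 under each of the same 3 alternatives. The share of all genes with an MTF2 peak in sh#2 cells was 15.5% with promoters only, 20.3% with 10 kb upstream, 12.8% with the median score, 16.7% with at least 50% of the peak overlapping and 16.7% with the canonical transcript. In shCT cells these shares for MTF2 were 11.04%, 15.2%, 9.14%, 12.8% and 12.4%. For PHF19 they were 7.80%, 12.0%, 6.01%, 9.59% and 9.17%. Coding transcripts alone left the counts and shares close to those given above. A window of 500 bp either side of the TSS moved the CpG ratio of all 10 genes, to 0.175 for ATG9B and 0.949 for BNIP3. Without division by length, the level percentile moved for 8 of the 10 genes. SQSTM1 then lay at 93.1 and GABARAPL2 at 87.7, the reverse of their order per kb. With genes of a mean of at least 10, the level percentile of all 10 genes was lower, at 24.9 for ATG9B and 95.1 for BNIP3L, and 3 genes lay below the median instead of 1. With the nearest of all annotated TSSs, the distance to a peak was shorter for 4 of the 10 genes in each MTF2 list and for 7 in the PHF19 list. The largest relative shift was that of the MTF2 distances of WIPI1. No paired analysis was possible because each ChIP condition has 1 library and the RNA values are a mean over all libraries. Depth is unknown, so an absent peak may lie below the limit of its list.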
